A study of Mus musculus with 4 samples.

Results

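Early B-cell genes of the recombinase, the pre-B receptor and the B-lineage transcription factors are described here in arrays of sorted mouse bone marrow cells. The 10 genes are Rag1, Rag2, Vpreb1, Vpreb3, Cd79a, Blnk, Pax5, Ebf1, Bach2 and Arpp21, out of 19938 genes measured. They were selected on their signals by genotype and array number in these same arrays, so the genotype differences are given as a description without a test. All 10 had exactly 1 probe set with a single gene symbol. The cells were Lin-, c-Kit+ and Sca-1+ (LSK) bone marrow cells, called haematopoietic stem cells (HSCs) in the labels, from C57BL/6 mice aged 8 weeks. There were 2 arrays of WT mice and 2 of mice labelled Hif1a-/-, numbered 1 and 2 in each genotype and named as biological replicates. How Hif1a was deleted, in which cells, and how many mice gave each array are not given in the sources used here. Hif1a encodes the oxygen-regulated subunit of HIF-1. Its own log2 signal, 10.37 and 10.99 in WT arrays 1 and 2, overlapped with that of the Hif1a-/- arrays (10.58 and 10.64). These values thus do not show the deletion, and where the probes lie relative to the deleted part was not examined.

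A B cell is made in the bone marrow in steps. The transcription factors Ebf1 and Pax5 switch on the B-lineage genes and hold the cell in that lineage, and the Rag1 and Rag2 proteins together cut DNA to join the segments of the immunoglobulin genes. A finished heavy chain is then displayed with the surrogate light chain, made of VpreB and lambda5 (Igll1), and signals through the CD79 chains and the adaptor Blnk. Rag genes are already transcribed in lymphoid progenitors that precede commitment, part of which fall in or near the LSK gate.

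The samples themselves stood apart by array number. Kit, the receptor used in the sort, had a log2 signal of 12.57 and 12.37 in the number 1 arrays of WT and Hif1a-/- and of 11.51 and 11.32 in the number 2 arrays. Hlf, a transcription factor gene of stem cells, was split further by number, with 11.91 and 11.72 against 9.28 and 8.46. The gene of Sca-1 was not analysed here. Over 8 measured LSK markers the median was 11.25 and 11.07 in number 1 against 9.27 and 8.57 in number 2, while 12 neutrophil markers had medians of 10.56 and 10.35 against 12.37 and 12.82. Xist, a transcript of the inactive X chromosome, was at 6.94 and 7.76 in WT arrays 1 and 2, at 6.82 in Hif1a-/- array 1 and at 11.23 in Hif1a-/- array 2, while Y-linked genes gave signal in all 4 arrays (Uty at 9.19, 8.98, 9.33 and 8.35 in the same order). The sexes of the mice behind each array are not given in the labels used here. The differences of the 10 genes are therefore also given within each array number. The part that cell makeup had in any value was not tested, and in such bulk samples fewer cells of a type and less RNA per cell cannot be told apart.

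**Figure D1:**
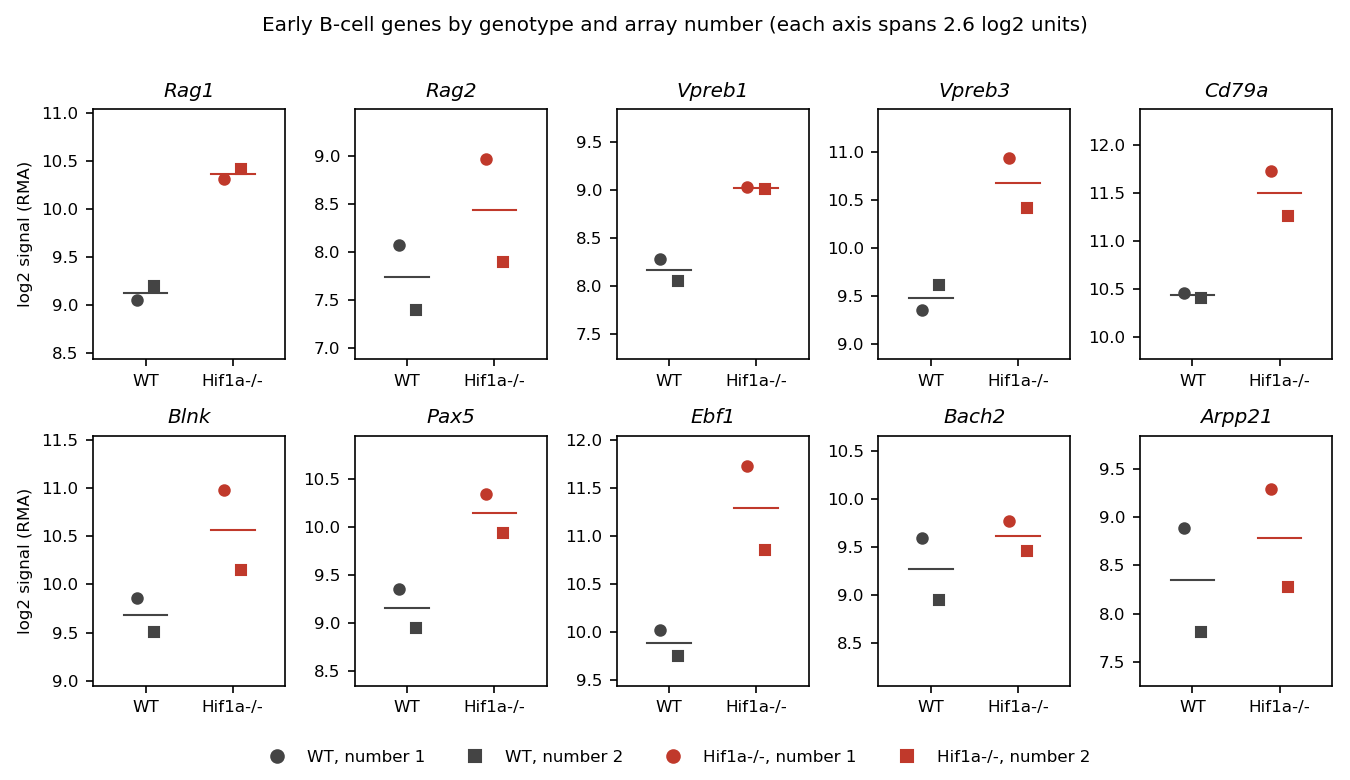
Log2 RMA signal (vertical axes) of the 10 early B-cell genes in WT and Hif1a-/- arrays (horizontal axes), with circles for number 1, squares for number 2 and a line at each group's mean of 2 arrays. For 7 genes both Hif1a-/- arrays lie above both WT arrays, whereas the groups overlap for Rag2, Bach2 and Arpp21.

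All 10 genes had a higher mean in the arrays labelled Hif1a-/- than in the WT arrays, which held for 50.6% of all genes. For 7 of the 10 (Rag1, Vpreb1, Vpreb3, Cd79a, Blnk, Pax5 and Ebf1) both Hif1a-/- arrays lay above both WT arrays, which held for 16.1% of all genes. Since the genes were taken for this contrast, nothing is read from that count. Their median difference was 0.93 log2 units, beside 0.00 over all 19938 genes, and the single differences ran from 0.34 to 1.41. The limma fit passed 0 genes at an adjusted p under 0.05, or 0% of those tested, and at an unadjusted p under 0.05 it had 109 genes higher (0.547%) and 36 lower (0.181%).

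The recombinase genes differed in how steady they were. Rag1 had log2 signals of 9.05 and 9.19 in WT and of 10.31 and 10.41 in Hif1a-/-. Both pairs of replicates lay close together, with SDs of 0.10 and 0.07 (n = 2 each), and no value of one genotype came near the other. The difference was 1.24 log2 units, or 2.36-fold (limma SE 0.12), and it was 1.26 in number 1 and 1.22 in number 2. Rag2, whose protein is the partner of Rag1 in the same enzyme, was at 8.08 and 7.40 in WT and at 8.97 and 7.90 in Hif1a-/-. Here Hif1a-/- array 2 lay below WT array 1, so the genotypes overlapped. The mean difference of Rag2 was 0.69 (SE 0.46), made of 0.89 in number 1 and 0.50 in number 2. Without Hif1a-/- array 1 it became 0.16, without WT array 2 it became 0.36, and without Hif1a-/- array 2 it became 1.23. With an array left out the numbers are no longer balanced between the genotypes, so such values also carry the difference between the numbers. Between the numbers Rag2 was 0.67 lower in WT array 2 and 1.07 lower in Hif1a-/- array 2 than in array 1 of the same genotype, whereas Rag1 was 0.14 and 0.10 higher.

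Both recombinase genes lie on chromosome 2 with 0 other genes between them in the RefSeq annotation, and they are read from opposite strands towards each other. The 250 bases before the RefSeq start of Rag1 (GRCm38.p6, chr2:101649533-101649782, minus strand) are shown because Rag1 was the steadiest of the genes with a large difference. Capitals mark E-boxes, searched on both strands as CAGGTG and as CAGCTG, the letters that basic helix-loop-helix factors such as E2A (Tcf3) bind.
Rag1: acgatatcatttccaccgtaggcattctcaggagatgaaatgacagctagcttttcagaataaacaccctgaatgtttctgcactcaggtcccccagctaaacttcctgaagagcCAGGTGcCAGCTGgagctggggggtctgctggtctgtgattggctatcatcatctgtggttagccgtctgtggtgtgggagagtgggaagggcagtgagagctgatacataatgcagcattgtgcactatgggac
The first capitals are CAGGTG, from base 135 to base 130 before the start, and the next are CAGCTG, from 128 to 123, with no overlap.

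Genes of the surrogate light chain group were also higher in the mean. Vpreb1, which encodes the VpreB part of the surrogate light chain, had 8.28 and 8.05 in WT and 9.03 and 9.01 in Hif1a-/-. The Hif1a-/- values were nearly equal (SD 0.01, n = 2), and both lay above WT. The difference was 0.85 log2 units, or 1.81-fold (SE 0.13), with 0.75 in number 1 and 0.96 in number 2. Vpreb3, which encodes a related protein of pre-B cells, was at 9.35 and 9.62 in WT and at 10.94 and 10.42 in Hif1a-/-. It was higher by 1.20 (2.29-fold, SE 0.23), by 1.58 in number 1 and 0.81 in number 2, without overlap. Vpreb2 is a close copy of Vpreb1, named here after its values were seen. Its signal was 8.87 and 8.72 in WT and 9.01 and 8.83 in Hif1a-/-, a difference of 0.13 (SE 0.13) with overlapping groups. Probes of such close copies can bind each other's transcripts, so the signals of Vpreb1 and Vpreb2 may not be fully separate.

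The regions before Vpreb1 (GRCm38.p6, chr16:16869256-16869505, minus strand) and Vpreb2 (chr16:17980315-17980564, plus strand) are shown together since the copies gave unlike differences. Capitals again mark CAGGTG and CAGCTG.
Vpreb1: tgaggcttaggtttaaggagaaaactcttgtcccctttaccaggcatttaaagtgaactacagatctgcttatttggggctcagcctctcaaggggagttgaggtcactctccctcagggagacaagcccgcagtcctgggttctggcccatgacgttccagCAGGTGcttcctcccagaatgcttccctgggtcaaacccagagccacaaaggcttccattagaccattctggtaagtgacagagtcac
Vpreb2: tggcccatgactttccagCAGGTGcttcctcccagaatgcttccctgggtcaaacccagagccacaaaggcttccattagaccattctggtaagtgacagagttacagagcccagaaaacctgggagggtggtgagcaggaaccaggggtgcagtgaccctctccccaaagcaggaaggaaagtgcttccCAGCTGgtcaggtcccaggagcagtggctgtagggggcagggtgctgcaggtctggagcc
With the Vpreb2 region set 144 bases along that of Vpreb1, 104 of 106 aligned bases were identical (98.1%). The CAGGTG box lies in this stretch, from base 88 to base 83 before the annotated start of Vpreb1.

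**Figure D2:**
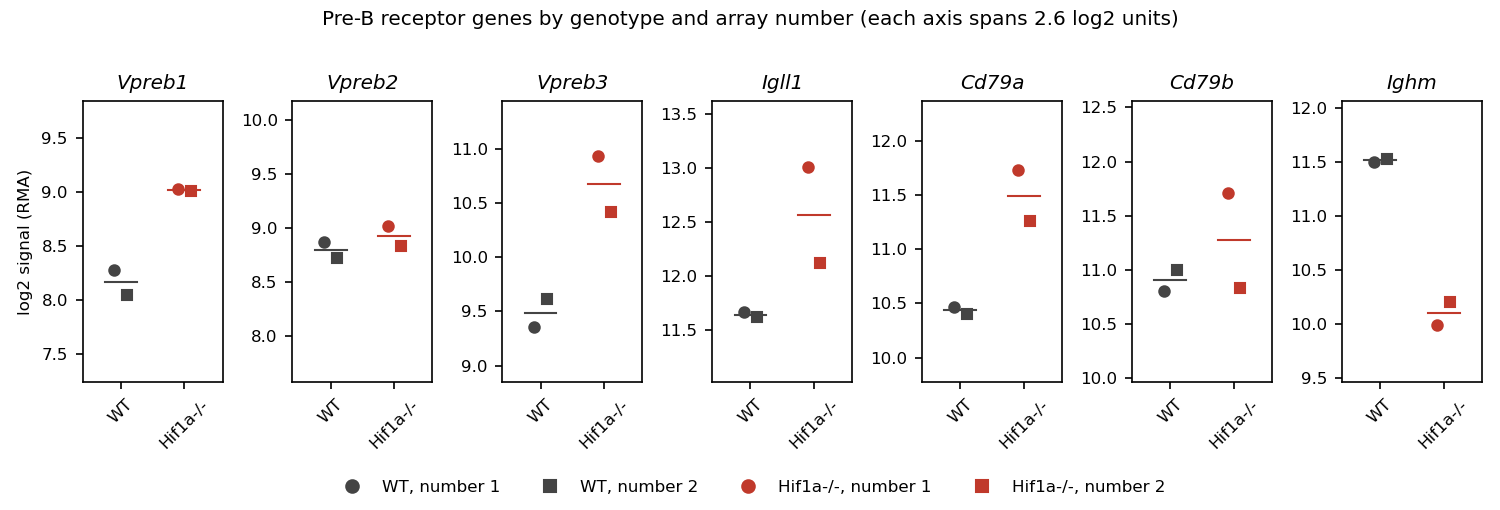
Log2 RMA signal (vertical axes) of 7 genes of the pre-B receptor and the surrogate light chain group in WT and Hif1a-/- arrays, with circles for number 1, squares for number 2 and a line at each mean of 2 arrays. Vpreb1, Vpreb3, Igll1 and Cd79a lie higher in both Hif1a-/- arrays, Vpreb2 and Cd79b overlap, and Ighm lies lower.

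Cd79a encodes Ig-alpha, a signalling chain of the pre-B and B-cell receptors. Its log2 signals were 10.46 and 10.41 in WT and 11.73 and 11.26 in Hif1a-/-. The WT arrays differed little (SD 0.04, n = 2) and the Hif1a-/- arrays more (SD 0.34, n = 2), without overlap. It was higher by 1.06 log2 units, or 2.09-fold (SE 0.20), with 1.27 in number 1 and 0.85 in number 2. Cd79b, the gene of its partner chain Ig-beta, was at 10.81 and 11.00 in WT and at 11.71 and 10.83 in Hif1a-/-. That is 0.90 higher in number 1 and −0.17 in number 2, where Cd79a was higher, and the mean difference of 0.37 (SE 0.34) had overlapping groups. The region before Cd79a (GRCm38.p6, chr7:24897247-24897496, plus strand), known as a target of Ebf1 and E2A, is shown for its single CAGGTG box, in capitals from base 154 to base 149 before the start.
Cd79a: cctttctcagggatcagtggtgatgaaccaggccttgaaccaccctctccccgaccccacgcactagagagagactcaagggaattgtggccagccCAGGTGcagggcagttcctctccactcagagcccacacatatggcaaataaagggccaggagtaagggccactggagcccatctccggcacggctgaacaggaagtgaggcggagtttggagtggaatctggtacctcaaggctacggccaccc

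Blnk, the adaptor that links the receptor's kinase to downstream enzymes, was at 9.86 and 9.51 in WT and at 10.99 and 10.15 in Hif1a-/-. The groups did not overlap, but the gap between Hif1a-/- array 2 and WT array 1 was small beside the spread of the Hif1a-/- arrays (SD 0.59, n = 2). The difference was 0.88 log2 units (1.84-fold, SE 0.34), with 1.12 in number 1 and 0.64 in number 2, and it became 0.46 without Hif1a-/- array 1.

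Transcription factor genes held the widest range of differences. Ebf1, the factor that specifies the B lineage, was at 10.02 and 9.76 in WT and at 11.73 and 10.86 in Hif1a-/-. It had the largest difference of the 10 genes, 1.41 log2 units or 2.65-fold (SE 0.34), rank 3 of all 19938 genes by signed difference. Within the numbers it was 1.71 and 1.10, and both Hif1a-/- arrays lay above WT, array 1 by more. Pax5, the factor of B-lineage commitment, was at 9.35 and 8.95 in WT and at 10.35 and 9.94 in Hif1a-/-. Its difference was 0.99 (1.99-fold, SE 0.23) and was nearly the same in both numbers, 0.99 each. Bach2, a repressor that acts in B-cell development and in mature B cells, was at 9.60 and 8.95 in WT and at 9.77 and 9.46 in Hif1a-/-, with overlapping groups. Its difference of 0.34 (SE 0.28) was the smallest of the 10, with 0.17 in number 1 and 0.51 in number 2. With an array left out, which unbalances the numbers between the genotypes, Bach2 differed by 0.02 without WT array 2 and 0.66 without WT array 1. Without Hif1a-/- array 1 it differed by 0.18.

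Arpp21, which encodes a cAMP-regulated phosphoprotein best known from the brain, followed the array number more than the genotype. It was at 8.89 and 7.81 in WT and at 9.29 and 8.27 in Hif1a-/-, so the number 1 arrays were high and the number 2 arrays low in both genotypes. The arrays of 1 genotype differed by 1.09 (WT) and 1.02 (Hif1a-/-), against a genotype difference of 0.43 (SE 0.54) that was 0.40 in number 1 and 0.46 in number 2. Its sign turned without WT array 2 (−0.11) and without Hif1a-/- array 1 (−0.08), and it became 0.975 without WT array 1 and 0.94 without Hif1a-/- array 2. Each of these comparisons left the numbers unbalanced between the genotypes, so the values also carry the difference between the numbers.

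Within each array number all 10 genes were higher in the Hif1a-/- array. In number 1 this held for 55.3% of all genes, in number 2 for 51%, and in both for 27.3%. The medians of the 10 were 1.06 in number 1 and 0.83 in number 2, beside 0.02 and 0.01 over all genes. A difference of at least 0.5 in both numbers was found for 7 of the 10, beside 39 of all genes (0.196%). Rag2 with 0.496 in number 2 fell just short of that value. In both genotypes 8 of the 10 were lower in number 2 than in number 1, beside 33.6% of all genes, the exceptions being Rag1, higher in number 2 in both, and Vpreb3, higher in WT only. These shares describe genes taken for their pattern over genotype and number, and the within-number values come from 1 array a genotype.

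**Figure D3:**
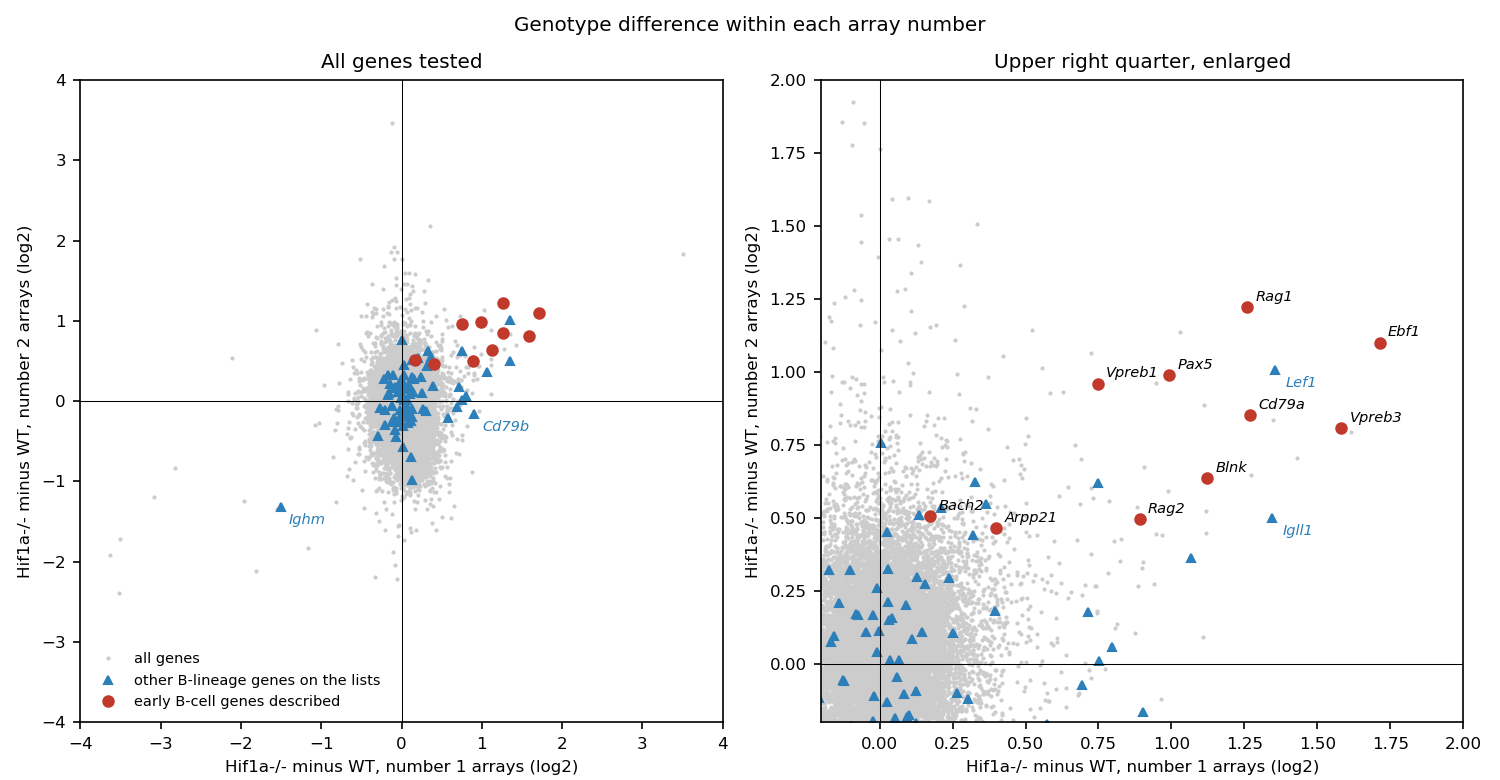
Difference in log2 signal between the Hif1a-/- and the WT array of number 1 (horizontal axes) and of number 2 (vertical axes), with grey dots for all 19938 genes, triangles for the other B-lineage genes on the lists and red circles for the 10 early B-cell genes. The right panel enlarges the upper right of the left one, where Rag1, Ebf1, Pax5, Vpreb1, Cd79a, Vpreb3 and Blnk lie away from the bulk of genes, and Bach2 and Arpp21 near it.

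The other genes on the B-lineage lists had a median difference near that of all genes. These lists also hold general repair factors, and the differences of single genes ran from −1.41 to 1.18, so the median does not describe each gene. Of 79 further genes on 5 lists 75 were measured, and 0 passed limma at an adjusted p under 0.05, with 1 higher (Lef1) and 1 lower (Ighm) at an unadjusted p under 0.05. Both Hif1a-/- arrays lay above both WT arrays for 12 of the 75 and below for 3, beside 16.1% and 8.33% of all genes, so the first share was near that of all genes. A higher mean in Hif1a-/- was found for 46 of the 75, beside 50.6% of all genes, a share to set beside the counts of each list. With the replicate number as a block in limma 10 of the 75 had an unadjusted p under 0.05, beside 478 of all 19938 genes. The directions of these 10 were not counted, and 0 passed after adjustment. The median difference of the 75 was 0.045 log2 units (0.04 in number 1 and also in number 2).

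Among the pre-B receptor chains, Igll1, which encodes the lambda5 part of the surrogate light chain, was at 11.67 and 11.62 in WT and at 13.01 and 12.12 in Hif1a-/-. The mean of Igll1 was 0.92 higher (SE 0.33), from 1.35 for number 1 and 0.50 for number 2, and the groups did not overlap. Ighm, the gene of the heavy chain that pairs with it, was at 11.50 and 11.53 in WT and at 9.99 and 10.21 in Hif1a-/-. It thus differed the other way, by −1.41 (SE 0.13; −1.51 in number 1, −1.32 in number 2), although neither gene passed the test over all genes.

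Of 23 other B-lineage transcription factor genes 14 had a higher mean, beside 50.6% of all genes, with 0 passing. Without overlap 5 lay above WT (Lef1, Foxo1, Spib, Pou2af1 and Id3) and 0 below, beside 16.1% and 8.33% of all genes. Spib, Pou2af1 and Id3, named after their values were seen, differed by 0.72, 0.43 and 0.29. Lef1, a Wnt-pathway factor active in pro-B cells, was at 8.91 and 9.18 in WT and at 10.26 and 10.19 in Hif1a-/-, a difference of 1.18 (SE 0.15, adjusted p = 0.9998 in limma) that was 1.35 in number 1 and 1.01 in number 2. Foxo1, which drives Rag transcription in B-cell precursors, was at 9.82 and 9.48 in WT and at 10.18 and 10.02 in Hif1a-/-, a difference of 0.46 (SE 0.17; 0.37 and 0.55 within the numbers) without overlap. On the lower side Tcf12 and Zfp521 differed by −0.26 and −0.36, each with overlapping groups. Tcf3, the E2A gene, named after its values were seen, differed by 0.08 (SE 0.28), with 0.27 and −0.10 within the numbers.

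Recombination partners, the repair and end-joining factors that finish what Rag1 and Rag2 begin, gave a median of −0.05 over 13 measured genes, with 4 higher in the mean. Lig4, the ligase of end joining, was 0.18 higher (SE 0.12), and the polymerase gene Polm 0.15 higher, while Poll and Xrcc4 differed by −0.22 and −0.16. None of the 13 passed, with 0 at an unadjusted p under 0.05. Dntt, the polymerase that adds bases at the joints and a marker of lymphoid progenitors, was singled out after its values were seen. It was at 12.22 in WT array 1 and 12.25 in Hif1a-/- array 1, and at 9.95 and 10.28 in the arrays numbered 2. It thus followed the array number, with a genotype difference of 0.03 in number 1 and 0.33 in number 2.

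Signalling and surface genes had medians close to that of all genes. Of 15 measured pre-B receptor signalling genes 12 had a higher mean, with a median of 0.07 and 0 passing. Prkcb, a protein kinase C, differed by 0.68 (SE 0.48; 0.75 and 0.62 within the numbers) and the kinase gene Blk by 0.27 (SE 0.16), whereas Btk and Ptpn6 differed by −0.10 and −0.09. Of 20 surface and cytokine receptor genes 13 had a higher mean, with a median of 0.06 and 0 passing. Cd22, an inhibitory co-receptor of B cells, was at 7.84 and 7.96 in WT and at 8.17 and 8.59 in Hif1a-/-, a difference of 0.48 (SE 0.19; 0.33 and 0.62 within the numbers). Cxcr5 differed by 0.21, Crlf2 by −0.19 and Spn by −0.18. Il7r, the receptor of the cytokine that B-cell precursors need, chosen after its values were seen, was 0.69 higher in number 1 but stood at −0.07 in number 2.

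Markers of mature B cells were also higher in the mean, by smaller amounts than most of the early genes. Of 7 measured mature B-cell markers 7 had a higher mean in Hif1a-/-, beside 50.6% of all genes. Without overlap 2 (Cd22 and Cxcr5) lay above WT, beside 16.1% of all genes. The median difference of the 7 was 0.21 (0.15 in number 1, 0.27 in number 2), and Cr2 and Fcer2a differed by only 0.01 and 0.02. Tnfrsf13c, a receptor of the survival factor BAFF, was at 10.32 and 9.76 in WT and at 10.53 and 10.29 in Hif1a-/-, a difference of 0.37 (SE 0.24) with overlapping groups. Over these 7 markers the median signal was 7.11 and 6.84 in WT and 6.94 and 6.995 in Hif1a-/-. Ms4a1 (CD20) was at 6.45 and 6.84 in WT and at 6.49 and 6.995 in Hif1a-/-, following the number. Cd74, which antigen-presenting cells of several kinds share, also followed it, with 11.63 and 11.88 in number 1 and 13.69 and 14.02 in number 2. Of 10 T-cell markers 10 had a higher mean in Hif1a-/-, beside 50.6% of all genes. The median difference of the 10 T-cell markers was 0.17 (0.055 in number 1, 0.24 in number 2).

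Natural killer (NK) cell markers had the largest median difference of the marker lists, 0.60 over 7 genes. Of these 6 were higher in the mean, beside 50.6% of all genes, and the median was 0.06 in number 1 and 0.98 in number 2. The 12 neutrophil markers had a median difference of 0.35, with −0.205 in number 1 and 0.93 in number 2. Klrd1, a receptor chain of NK cells, was at 7.32 and 8.24 in WT and at 7.69 and 9.23 in Hif1a-/-, highest in Hif1a-/- array 2 and with overlapping groups. Of 8 LSK markers 0 had a higher mean in Hif1a-/-, beside 50.6% of all genes. The median of the 8 was −0.34 (−0.135 and −0.45 within the numbers), and 5 plasmacytoid dendritic cell markers had a median of −0.02 (−0.09 and −0.07). Plasma cell markers were lower in the mean for 6 of 6 genes, where 50.6% of all genes were higher. Their median was −0.21 (−0.04 and −0.40 within the numbers). Sdc1, Xbp1 and Irf4 were higher in Hif1a-/- within number 1, by 0.02, 0.06 and 0.095, and lower within number 2. These genes and Prdm1 had overlapping groups. Among the plasma cell markers Jchain, the gene of the chain that links IgM and IgA units, was at 11.90 and 12.22 in WT and at 10.35 and 10.88 in Hif1a-/-. Its difference of −1.45 (SE 0.24) was close in size to that of Ighm, which plasma cells also transcribe, and Tnfrsf17 too lay below WT without overlap (−0.32, SE 0.16). None of these markers passed over all genes. Array values have no true zero and no detection call was used, so a low signal is not read as absence, and the part of these cell types in the result was not tested.

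**Figure D4:**
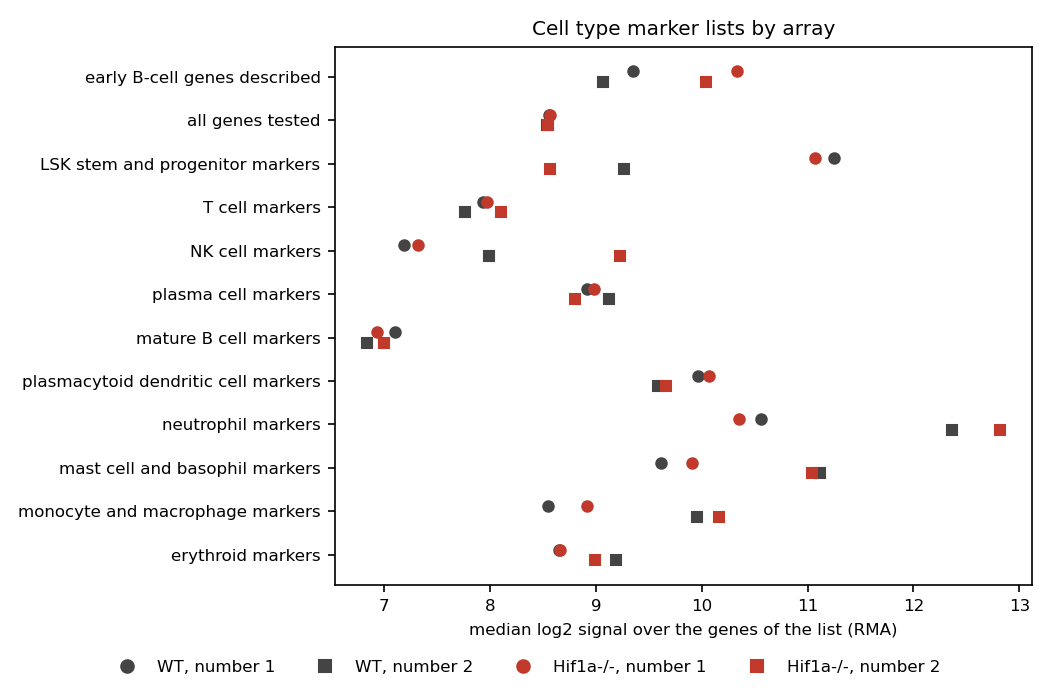
Median log2 RMA signal (horizontal axis) of the 10 early B-cell genes, of all genes and of 10 cell type marker lists (vertical axis) in each array, with circles for number 1, squares for number 2, grey for WT and red for Hif1a-/-. The median of the early B-cell genes, which were taken for their signals by genotype and number, separates by colour, although the groups overlap for Rag2, Bach2 and Arpp21. The medians of LSK, neutrophil, mast cell, monocyte, NK cell, erythroid and plasmacytoid dendritic cell markers separate by symbol.

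The genes whose profile over the 4 arrays lay nearest to the mean profile of the 10 were Cecr2, Ifi206, Pde2a, Igll1, Chst3, Olfr1252, Gfra2 and Gfra1. Likeness was the root mean square distance between profiles centred on their own mean, in log2 units. It was 0.12 for Cecr2, Ifi206 and Pde2a, 0.16 for Igll1 and up to 0.22 for Gfra1. Cecr2, a chromatin remodelling gene, was at 8.73 and 8.56 in WT and at 10.08 and 9.40 in Hif1a-/-. Pde2a, a phosphodiesterase of cyclic nucleotides, was at 10.44 and 10.35 in WT and at 11.55 and 11.24 in Hif1a-/-. Among the 10 themselves Pax5 lay closest to their mean, at 0.07, and Arpp21 farthest, at 0.40. With 4 arrays the nearest genes are a description of these arrays only.

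Over all upstream regions of 250 bases in the RefSeq table (32851 windows, GRCm38.p6), CAGGTG was found in 17.2% and CAGCTG in 13.0%. The 10 genes had 19 windows, 9 of them of Arpp21, some of which overlap. CAGGTG was in 8 of the 19, from 5 genes (Rag1, Vpreb1, Cd79a, Blnk and Arpp21), and CAGCTG in 4, from Rag1 and Arpp21. The palindrome CCCNNGGG, a core of the letters that Ebf1 binds, was in 0 of the 19 and in 11.8% of all windows. A match is only a run of letters, and no match says only that these letters are not in the window.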

How the data were processed

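The authors deposited log2 signals of 4 Affymetrix whole-transcript arrays. Per the submitters' processing notes, RMA was run in Affymetrix Expression Console 1.1. RMA corrects background, brings probe signals to a common distribution and summarises probe sets, so a change shared by all genes would be removed. The log base was taken from the range of values, and the sources used here name no genome build. Of 35556 probe sets, the platform annotation gave 21789 a single gene symbol and 1621 several, and it did not list 12146. Per gene the probe set with the highest mean was kept (19938 genes), with no filter on dim genes and 0 columns of other samples. With 2 arrays per genotype, the number of arrays limits the precision.

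limma 3.58.1 in R 4.3.3 compared the genotypes (lmFit, eBayes, two-sided, no covariates), with p adjusted by Benjamini-Hochberg over all genes at 0.05, after a check on simulated data. p-values measure the spread between these arrays. Members and lists were chosen with earlier results of these data known. Named were the members, Hif1a, in each B-lineage list up to 2 other genes per direction with the smallest p, and the 8 genes nearest to the members' mean profile. The alternatives tried were leaving out each array, a replicate block, 3 normalizations, the dimmest 40% left out, averaged probe sets and eBayes with trend and robust. Values within array numbers 1 and 2 alone were added after seeing the data. Upstream sequences are from RefSeq (GRCm38.p6), matched by symbol for 10 of 10 genes.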

Additional observations from a re-analysis of the deposited data

How the results depend on the processing

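Under cyclic loess, median centring, quantile normalization, the replicate block, each array left out, the dimmest 40% left out, averaged probe sets and eBayes with trend and robust, limma passed 0 genes at an adjusted p under 0.05, among them 0 other B-lineage list genes. At an unadjusted p under 0.05 the 145 genes became 57 to 622 with an array left out, 339 with trend and robust and 39 without the dimmest 40% of genes. With the replicate number as a block 478 genes had an unadjusted p under 0.05 and 0 passed after adjustment (smallest adjusted p 0.536), with the median of the members unchanged at 0.93. The deviations of same-numbered arrays correlated at 0.669 over 19938 genes, and arrays of the same number were closer (0.995 and 0.983) than arrays of the same genotype (0.966 and 0.962). The labels do not say what a number stands for, so the pairing is a hint from the data and not from the design. The members' median of 0.93 ranged from 0.76 (without WT array 2) to 1.21 (without Hif1a-/- array 2), and from 0.85 to 1.00 under the normalizations, where the median of all genes lay between −0.08 and −0.02. The count of 7 members without overlap was 7 to 10 with an array left out and 7 under the other alternatives. Leaving out an array can only keep or raise this count, so nothing is read from its range. In the arrays numbered 1 or 2 alone, 10 members were higher each time. Of 109 differences of single members under the alternatives, 2 turned sign, both of Arpp21, −0.11 without WT array 2 and −0.08 without Hif1a-/- array 1 (its range with an array left out was −0.111 to 0.975), and under the normalizations 0 did. With 2 arrays a group, leaving out 1 array can move these differences only by a fixed part of the replicate spread. Blocking, another variance model, averaging probe sets (1 per member) and leaving out dim genes could not move the differences of the members kept. These alternatives therefore say little about stability. The dimmest 40% included Rag2. The causes were not tested.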
